A study of Mus musculus with 6 samples.

Results

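Complement and coagulation are 2 cascades of blood plasma proteins, and most of their proteins are made by hepatocytes. The 39 genes described here encode 16 complement factors, 14 coagulation factors (plasminogen included) and 9 inhibitors or regulators of the cascades. They were chosen by name, and for each gene the probe with the highest mean processed signal was taken among the probes carrying that name on all 6 arrays. All 39 genes were found, of 27962 gene names with a probe. Livers came from male 129/Sv mice, 6 to 8 weeks old at the start, which were given either the Lieber-DeCarli liquid diet with 4% ethanol or a control liquid diet with the same calories from maltose dextran, after a first period on the control diet in both arms. Equal RNA of 6 mice per diet was pooled after 1, 2 and 4 months, so each month compares 1 alcohol pool with 1 control pool. The mice of a pool cannot be told apart, and a single animal can move its pool. Both pools of a month were labeled with Cy3 and Cy5 and put on 2 arrays that differ in which pool carries which dye, so that there are 6 arrays and 3 independent pairs of pools. The labels name whole liver, in which fewer cells of a type and less RNA per cell cannot be told apart.

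Complement is set off by antibody (through C1q and C2), by mannose-binding lectins and their MASP proteases, or by the alternative pathway with factor B and factor D. The routes meet at C3, and C5 to C9 then assemble into the pore that lyses target cells. In coagulation, the contact proteins (factor XII, prekallikrein, kininogen and factor XI) and the factor VII route lead to thrombin, which turns fibrinogen into fibrin, while plasmin dissolves it. Antithrombin, heparin cofactor II, protein C and protein S, C1 inhibitor and factor I hold the cascades in check. Many of these proteins rise in plasma in the acute-phase response, and the liver is also their main source in health.

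Among the 39 genes, RNA of 2 terminal complement components and 1 contact factor stood lower in the alcohol pools: C6 (pore component), C9 (the component that polymerizes to form the wall of the pore) and F11 (factor XI). C6 was 2.48-fold lower after 1 month, 1.62-fold lower after 2 months and 2.35-fold lower after 4 months. C9 was 1.41-fold, 1.76-fold and 2.90-fold lower at these times. F11 was 1.66-fold, 1.48-fold and 1.56-fold lower. The 3 fibrinogen chains stayed within 1.19-fold of control in each month, and no member stood 1.5-fold higher in the alcohol pool at any time. The plot of all 39 genes shows each array.

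**Figure D1:**
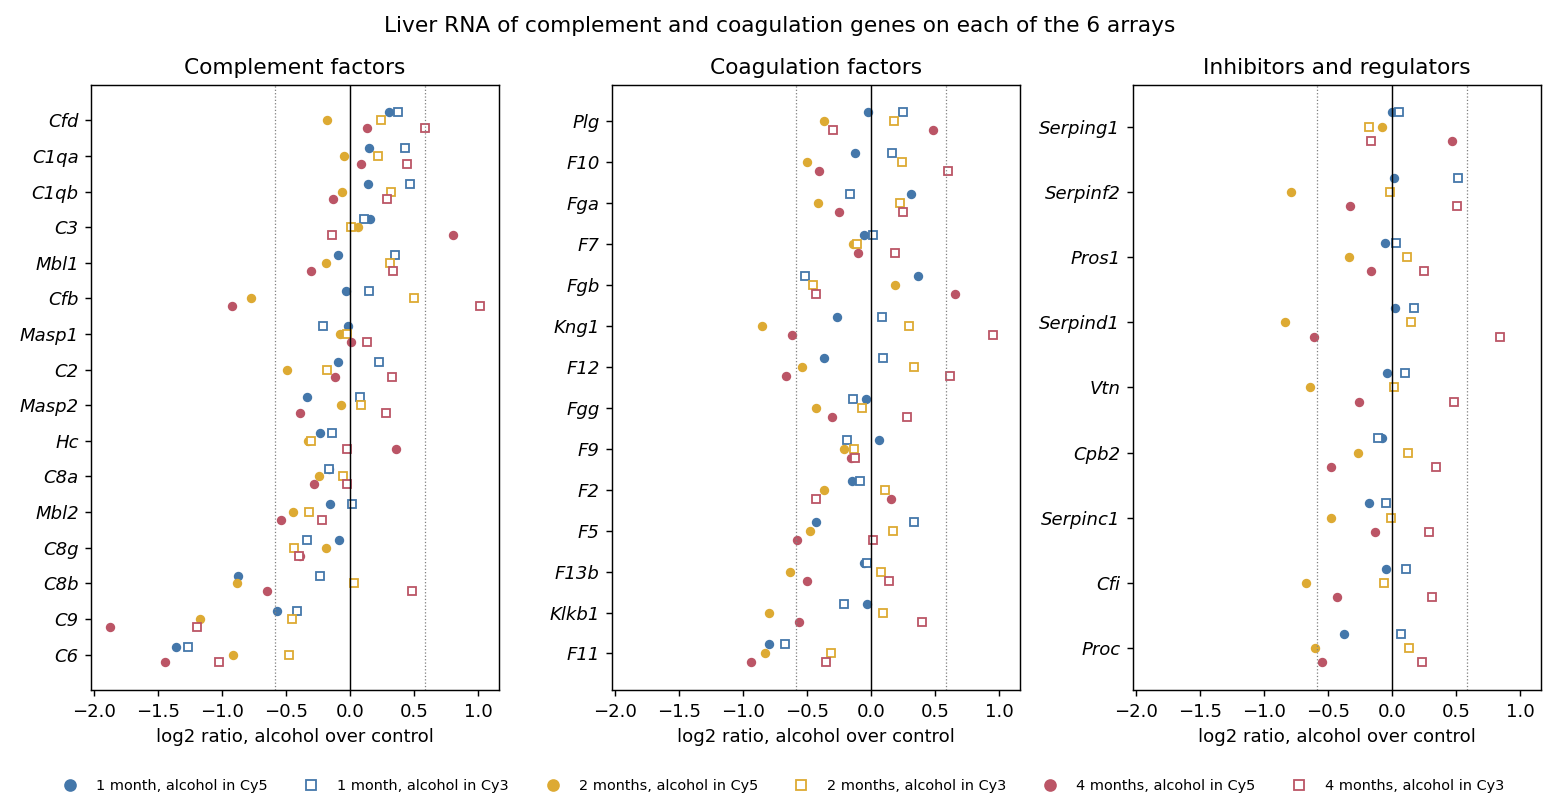
Log2 ratio of alcohol over control (x axis) of each of the 39 genes (rows, sorted by mean) on the 6 arrays. Colors mark the month, filled circles the array with alcohol in Cy5 and open squares the array with alcohol in Cy3, and dotted lines mark 1.5-fold. All 6 points of C6, C9 and F11 lie left of 0, whereas the points of most other genes fall on both sides.

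The 3 genes are shown by the bases before their transcription start, since they are the members past 1.5-fold. The stretches are the 250 bases upstream of the start in RefSeq's GRCm38.p6, printed 5′ to 3′ on the strand of the gene: C6 at chr15:4726960-4727209 (plus strand), C9 at chr15:6445096-6445345 (plus strand) and F11 at chr8:45262032-45262281 (minus strand). Capitals mark matches to short motifs of liver transcription factors.
C6: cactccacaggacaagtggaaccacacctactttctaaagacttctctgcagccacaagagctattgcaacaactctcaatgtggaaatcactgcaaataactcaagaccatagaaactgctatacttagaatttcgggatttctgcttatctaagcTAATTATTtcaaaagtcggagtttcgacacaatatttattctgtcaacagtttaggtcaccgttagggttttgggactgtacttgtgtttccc
C9: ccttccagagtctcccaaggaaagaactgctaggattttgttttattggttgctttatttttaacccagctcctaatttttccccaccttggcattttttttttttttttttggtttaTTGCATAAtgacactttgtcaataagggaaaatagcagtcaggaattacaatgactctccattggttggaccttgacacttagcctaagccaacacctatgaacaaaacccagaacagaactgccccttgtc
F11: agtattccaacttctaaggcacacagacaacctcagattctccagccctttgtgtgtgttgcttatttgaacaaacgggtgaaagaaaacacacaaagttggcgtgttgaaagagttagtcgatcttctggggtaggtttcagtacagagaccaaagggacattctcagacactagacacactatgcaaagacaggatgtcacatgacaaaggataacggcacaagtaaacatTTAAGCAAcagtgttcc
The motif letters, chosen with the sequences in view, were TAATNATT (HNF1 type), CAAAGTNCA (HNF4 type), TTGCNNAA (C/EBP type), CTGGGAA (interleukin-6 type) and TTCNNNGAA (STAT type), each searched on both strands in the same 250 bases. C6 held the HNF1 type match TAATTATT at 93 to 86 bases before the start. C9 held the C/EBP type match TTGCATAA at 132 to 125 bases, and F11 held the C/EBP type match TTAAGCAA at 17 to 10 bases on the opposite strand. Of all 32851 promoters in the table, 3.11% held the HNF1 letters, 1.19% the HNF4 letters, 9.56% the C/EBP letters, 9.1% the interleukin-6 letters and 7.02% the STAT letters. A promoter was listed for 30 of the 39 genes, of which 7 held the C/EBP letters (C3, C9, F11, F9, Fga, Fgb and Klkb1), 3 the HNF1 letters (C6, F13b and Hc), 6 the STAT letters, 4 the interleukin-6 letters and 1 (F9) the HNF4 letters. These matches are letters only and no measure of binding.

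All 39 probes gave signals well above background for both pools on each of the 6 arrays, and none was saturated. Their mean processed signal ranged from 276 (Cfd) to 48234 (Fga), and 13 of the 39 exceeded 30000, against 2.95% of 19981 gene names compared in the same way. Those 19981 names, each with its brightest probe that passed the same criterion, give the background shares below. The dyes left a mark on most genes. Across the background, the pair of arrays of a month correlated in log2 ratio at 0.11, -0.36 and -0.37 (Pearson) at 1, 2 and 4 months, after both were turned to alcohol over control. The part of the ratio that changed sign with the dyes correlated at 0.89 between 2 and 4 months. All 86 background genes past 2-fold after 4 months had 1 sign on both arrays. Selection on a large average makes that nearly certain, since the dye part had an SD across genes of 0.32. Averages of both arrays, in which the dye part cancels, are given, with the 2 arrays beside them where a result turns on them. The 2 arrays of a month share their RNA, so their SD is technical.

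A gene was counted as changed in a month where the averaged ratio was at least 1.5-fold (0.58 on the log2 scale) and both arrays had its sign. At 1 month 2 members were lowered (C6 and F11), which is 5.13% of the members beside 0.34% of the background, and 0 were raised beside 0.385%. At 2 months 2 were lowered (C6 and C9) beside 0.611% of the background, and 0 raised beside 0.385%. At 4 months 3 were lowered (C6, C9 and F11), 7.69% of the members beside 0.851%, and 0 raised beside 1.14%. In all, 3 members were past 1.5-fold in some month and 36 in none. The background share past 1.5-fold in any month was not counted. With 1 pool per diet and month, these counts carry no test. Single arrays gave other counts. With alcohol in Cy5, 13 members were lowered after 2 months, beside 3.23% of the background on that array, and 8 after 4 months, beside 4.17%. With alcohol in Cy3, 0 were lowered after 2 months, beside 2.4%, and 2 after 4 months (C6 and C9), beside 5.08%. After 4 months 2 members were raised with alcohol in Cy5, beside 3.77%, and 6 with alcohol in Cy3, beside 8.61%.

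C6 had log2 ratios of -1.36 and -1.26 after 1 month, -0.91 and -0.48 after 2 months, and -1.45 and -1.02 after 4 months (alcohol in Cy5 first, as in all pairs of values that follow). All 6 arrays were below 0, and the ratio was nearest to 0 after 2 months. C9 had -0.57 and -0.42 after 1 month, -1.17 and -0.46 after 2 months, and -1.88 and -1.20 after 4 months. Both arrays of 4 months lay below both arrays of each earlier month. F11 had -0.80 and -0.67, then -0.82 and -0.31, then -0.93 and -0.35. Its monthly means stayed between -0.74 and -0.57, and after 2 months it missed the 1.5-fold threshold by a small margin.

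**Figure D2:**
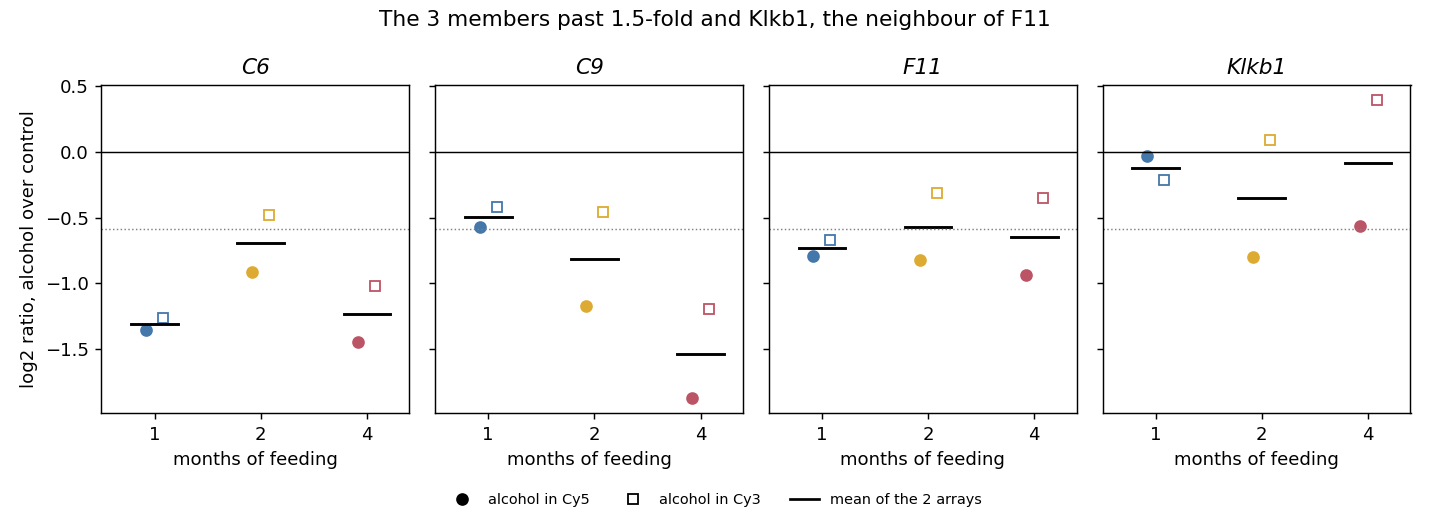
Log2 ratio of alcohol over control (y axis) by months of feeding (x axis) for C6, C9, F11 and Klkb1. Symbols are single arrays, black bars are the mean of the 2 arrays of a month and the dotted line marks 1.5-fold lower. C9 reached -1.54 after 4 months, F11 stayed near -0.65, and Klkb1 had arrays on both sides of 0 at 2 and 4 months.

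Over the 3 months as replicates, limma gave a mean log2 ratio of -1.08 for C6 (SE 0.138, adjusted p 0.613), -0.95 for C9 (SE 0.208, adjusted p 0.616) and -0.65 for F11 (SE 0.0657, adjusted p 0.478), each lower in 3 of 3 pairs of pools. Their unadjusted p-values in limma were 0.000697, 0.00688 and 0.000239. None of the 39 members passed the adjusted threshold, and none of the 37922 probes tested did (0.0%). At an unadjusted p under 0.05, limma had 8 members lowered, beside 4.23% of the probes tested, and 2 raised, beside 3.72%. The 8 were C6, C8a, C8b, C8g, C9, F11, Mbl2 and Proc, and the 2 were C1qa and Cfd. With all 6 arrays, a dye term and the month as a random block, limma's adjusted p was 0.0592 for C6 and 0.0555 for F11. That fit estimated a correlation of 0.00584 between the arrays of a month and so counted arrays of the same pools as nearly independent, which the 3 monthly averages do not. Over the 13 settings run the adjusted p in limma ranged from 0.0592 to 0.986 for C6, from 0.233 to 0.986 for C9 and from 0.0555 to 0.986 for F11. Arrays of 1 month sat on a slide of their own, so that this slide and 1 month of feeding cannot be told apart. Within the slide of 2 and 4 months alone the mean log2 ratio was -0.97 for C6, -1.18 for C9 and -0.61 for F11.

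The ratio of C9 was lower at each later time. Its slope in limma was -0.52 log2 units per doubling of the months (SE 0.0978, unadjusted p 0.00614, adjusted p 0.687), and the slopes of C6 (0.04) and F11 (0.05) were smaller than their SE of 0.185 and 0.0859. No slope passed the adjusted threshold among the members or among the 37922 probes (0.0%). At an unadjusted p under 0.05, 2 members had a slope in limma: C9 downwards, beside 3.39% of all probes tested, and C8b upwards by 0.24 per doubling, beside 3.73%. As 1 of 39 members in each direction, neither count is above that share.

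The levels in the pools show where the C9 ratio changed. Relative to the 75th percentile of its channel, C9 in the control pools stood at 2.48 after 1 month, 2.18 after 2 months and 1.57 after 4 months on the log2 scale, and in the alcohol pools at 1.99, 1.36 and 0.03. Both diets thus had a lower level after 4 months than after 1 month, the alcohol pool by more. C6 in the control pools stood at 2.31, 2.34 and 1.42, and in the alcohol pools at 1.00, 1.64 and 0.19. F11 in the control pools lay between 0.82 and 1.01 and in the alcohol pools between 0.08 and 0.44. Among members with little change in ratio, control levels fell from 2 to 4 months in F2 (5.24 to 4.44) and rose in Masp1 (2.23 to 2.44). Months were hybridized on different arrays, so differences between months also hold differences between arrays. The levels therefore do not show which pool moved the C9 ratio.

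**Figure D3:**
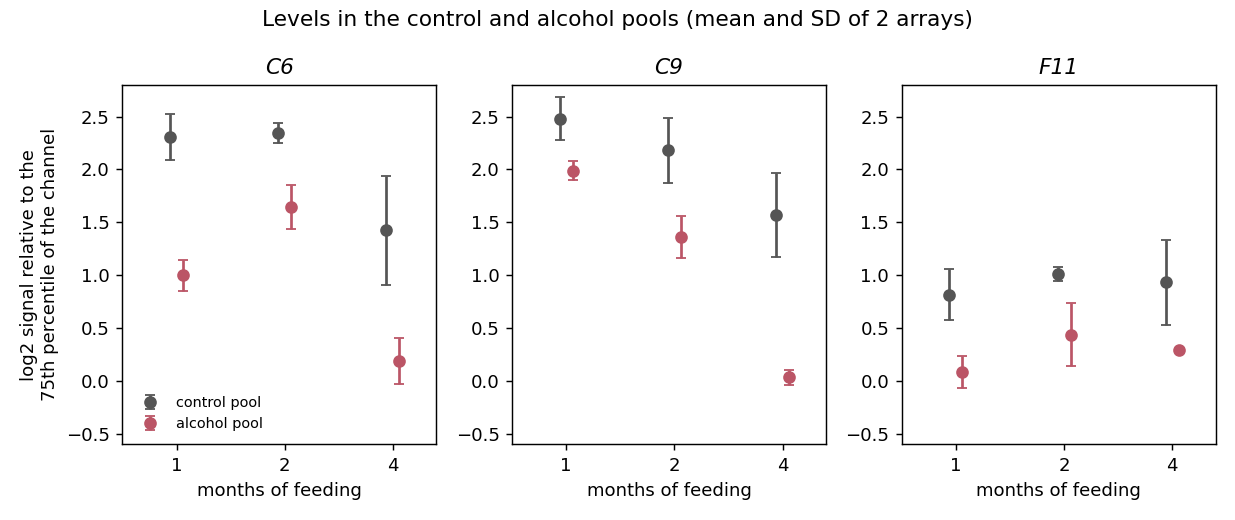
Log2 signal relative to the 75th percentile of its channel (y axis) of C6, C9 and F11 in the control pool (grey) and the alcohol pool (red) at 1, 2 and 4 months (x axis). Points are means and bars SDs of the 2 arrays of a month, which share their RNA. The alcohol point lies below the control point in each panel and month, and C9 shows its largest gap after 4 months.

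The other pore genes among the members were C8a, C8b and C8g, for the 3 chains of C8, and Hc, the mouse gene of C5. C8g (the gamma chain) had log2 ratios of -0.09 and -0.34 after 1 month, -0.19 and -0.44 after 2 months, and -0.39 and -0.40 after 4 months. C8a (the alpha chain) had -0.17 and -0.17, then -0.24 and -0.06, then -0.28 and -0.03. Both genes were below 0 on all 6 arrays but past 1.5-fold on none. In limma, C8g had a mean log2 ratio of -0.31 (SE 0.067, adjusted p 0.616) and C8a of -0.16 (SE 0.058, adjusted p 0.625). C8b (the beta chain) split by dye, with -0.88, -0.88 and -0.65 on the arrays with alcohol in Cy5 and -0.23, 0.03 and 0.49 on the others. Hc averaged -0.19, -0.32 and 0.17, and its arrays of 4 months differed in sign. The median over the 6 terminal genes was -0.35 after 1 month, -0.37 after 2 months and -0.27 after 4 months, beside medians of 0.00, 0.02 and 0.00 over the background. Of the 6, all were below 0 at 1 and after 2 months and 5 after 4 months, beside 50.8%, 44.8% and 51.6% of the background.

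With C6, C9 and F11, the genes C8a and C8g made 5 members lowered on all 6 arrays, 12.8% of the 39 beside 2.36% of the background. Of the 5, 4 belong to the pore of terminal complement. No member was raised on all 6 arrays, beside 1.53% of the background. Without the arrays of 4 months, 9 members were lowered on the 4 arrays left, the added ones being Fgg, Hc, Masp1 and Serpinc1, beside 4.94% of the background on these 4 arrays. C3 was then raised, beside 3.95%. Without the arrays of 2 months, C1qa and Cfd were raised on the 4 arrays left, beside 3.97%. In monthly averages, 16 members were below 0 in all 3 months (41.0%, beside 15.3% of the background) and 5 were above 0 in all 3 (12.8%, beside 15.9%).

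The 10 complement genes before the pore had a median of 0.10 after 1 month, 0.02 after 2 months and 0.07 after 4 months. Cfd (factor D), the gene with the highest mean in its group, had 0.30 and 0.38 after 1 month, -0.18 and 0.24 after 2 months, and 0.13 and 0.59 after 4 months. Only the array of 2 months with alcohol in Cy5 was below 0. C1qa and C1qb, which encode chains of C1q and are made by macrophages rather than hepatocytes, averaged 0.29 and 0.30 after 1 month, 0.08 and 0.13 after 2 months, and 0.26 and 0.08 after 4 months. C3, the component on which all routes meet, averaged 0.14, 0.03 and 0.33, but its arrays of 4 months stood at 0.80 and -0.14. Its probe has 10 spots on each array. In the lectin route, Mbl2 averaged -0.07, -0.38 and -0.38 and was below 0 on 5 of the 6 arrays, while Mbl1, Masp1 and Masp2 stayed between -0.13 and 0.13. C2 and Cfb, which neighbour each other, averaged between -0.34 and 0.11. Cfb (factor B) had the widest dye split, at -0.92 and 1.02 after 4 months, so that its average of 0.05 there has an SD of 1.37.

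**Figure D4:**
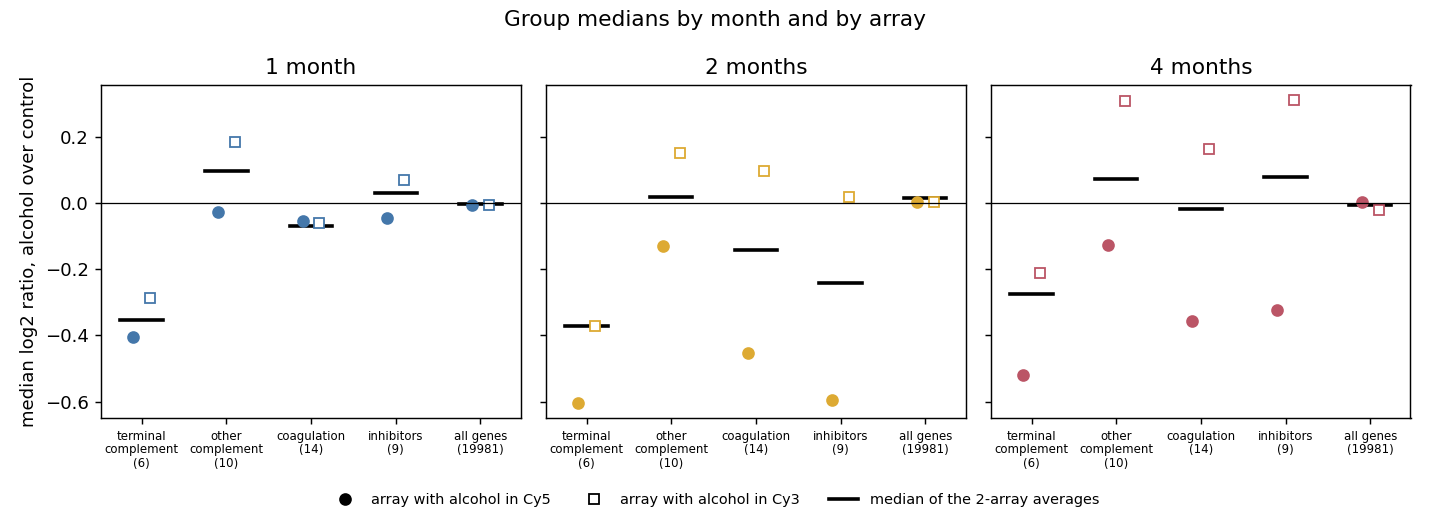
Median log2 ratio of alcohol over control (y axis) of the 6 terminal complement genes, the 10 other complement genes, the 14 coagulation genes, the 9 inhibitors and 19981 background genes, by month (panels). Black bars are medians of the 2-array averages, and symbols are medians on single arrays. Both arrays of the terminal genes lie below 0 in each month, and the medians of the coagulation genes and inhibitors at 2 and 4 months lie on opposite sides of 0 on the 2 arrays.

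F11 had the lowest ratio of the 14 coagulation genes in each month. The median over the 14 was -0.07 after 1 month, -0.14 after 2 months and -0.02 after 4 months, and the medians of the single arrays of 4 months were -0.35 and 0.17. All 14 averages were below 0 after 2 months, as were all 9 of the inhibitors, where 44.8% of the background was. At that month the arrays with alcohol in Cy5 carried the shift, with medians of -0.45 and -0.60 against 0.10 and 0.02 on the other array. The direction of these 2 medians thus differed between the dye orientations. Background genes with a mean signal of at least 10000 were below 0 in 53.4% of cases after 2 months.

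Klkb1 (prekallikrein), the immediate neighbour of F11 on chromosome 8, averaged -0.12 after 1 month, -0.35 after 2 months and -0.08 after 4 months, with arrays of both signs at the later times. F12 (factor XII) averaged -0.14, -0.10 and -0.03 and Kng1 (kininogen) -0.09, -0.28 and 0.17. F11 was thus the one contact factor of 4 that was lowered on all 6 arrays. C6 and C9 lie on chromosome 15 with 8 protein-coding genes between them, among them C7, for which no probe of that name was found. The neighbours F7 (factor VII) and F10 (factor X) averaged -0.02, -0.12 and 0.05, and 0.02, -0.13 and 0.10.

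Fga, Fgb and Fgg, adjacent genes on chromosome 3, encode the alpha, beta and gamma chains of fibrinogen. Fga had 0.31 and -0.16 after 1 month, -0.42 and 0.23 after 2 months, and -0.25 and 0.25 after 4 months. Fgb had 0.37 and -0.52, then 0.19 and -0.45, then 0.65 and -0.43. Fgg had -0.04 and -0.14, then -0.43 and -0.07, then -0.31 and 0.28. Fga and Fgb thus changed sign with the dye in every month, and the monthly average farthest from 0 was -0.25, of Fgg after 2 months. The genes of the vitamin K-dependent factors (F2, F7, F9, F10, Proc and Pros1) had medians of -0.04, -0.13 and -0.05. Of them, F2 (prothrombin) averaged -0.12, -0.13 and -0.14 and F9 (factor IX) -0.06, -0.17 and -0.14. Plg (plasminogen), the gene with the highest mean among the 14, had -0.03 and 0.25, then -0.37 and 0.18, then 0.48 and -0.29.

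**Figure D5:**
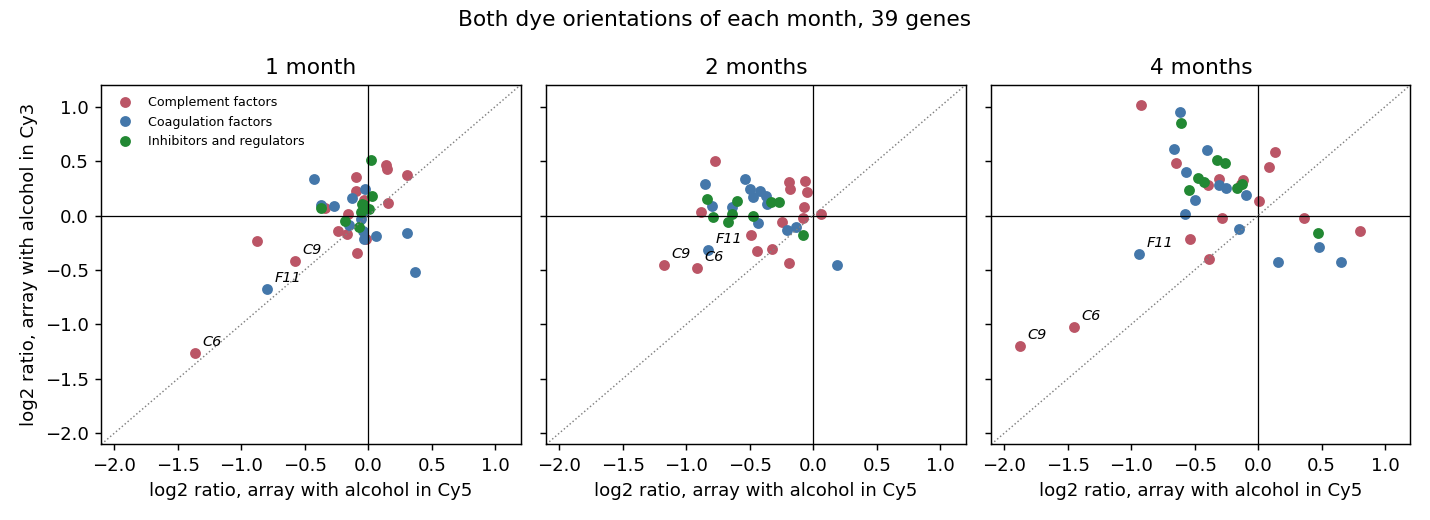
Log2 ratio of alcohol over control of the 39 genes on the array with alcohol in Cy5 (x axis) against the array with alcohol in Cy3 (y axis) for each month, colored by group. The dotted line marks equal ratios. C6, C9 and F11 lie at the lower left in each month. After 4 months 29 of the 39 genes (74.4%) had opposite signs on the 2 arrays, beside 72.8% of the background genes.

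The inhibitors had medians of 0.03 after 1 month, -0.24 after 2 months and 0.08 after 4 months, none of the 9 was past 1.5-fold in any month, and none had 1 direction on all 6 arrays. Proc (protein C), the lowest, had -0.37 and 0.07 after 1 month, -0.60 and 0.13 after 2 months, and -0.55 and 0.23 after 4 months. Its sign followed the dye in each month. Serping1 (C1 inhibitor), the highest, had 0.01 and 0.06, then -0.08 and -0.18, then 0.47 and -0.16. Serpinc1 (antithrombin) averaged -0.11, -0.24 and 0.08, Cfi (factor I) 0.03, -0.36 and -0.06, and Vtn (vitronectin) 0.03, -0.31 and 0.11. Serpinf2 (the plasmin inhibitor) averaged 0.27, -0.40 and 0.09, and Serpind1 (heparin cofactor II) 0.10, -0.34 and 0.12. Pros1 (protein S) and Cpb2 stayed between -0.11 and 0.04. These values lie within the difference between the 2 arrays of a month for most of the group: after 4 months all 9 had arrays of opposite sign.

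More than 1 probe was present for 10 members. Of their 13 other probes, 11 were well above background throughout, and the monthly averages of these differed from those of the chosen probe by 0.089 log2 units in the median and by 0.27 at most. C6, C9, F11, C8a, C8b and C8g had 1 probe each, so that their values rest on a single oligonucleotide.

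Other genes of the 2 cascades were taken from a list of 65 current and older names, of which 52 were found and 50 were well above background throughout. None was past 1.5-fold at 1 or 2 months. At 4 months 2 of the 50 were raised, beside 1.14% of the background, and 1 was lowered, beside 0.851%. The raised ones were A2m (alpha-2-macroglobulin, a broad protease inhibitor) and Fcna (ficolin A, a lectin that starts complement). A2m averaged 0.17, 0.28 and 0.89 and Fcna 0.23, 0.41 and 0.63, and both were above 0 on all 6 arrays. Their arrays of 4 months stood at 0.30 and 1.47, and at 0.31 and 0.95. Neither was thus past 1.5-fold with alcohol in Cy5, and with alcohol in Cy3 8.61% of the background was raised. The lowered one was Colec10 (a collectin of the liver), at -0.62, with arrays at -0.84 and -0.40. Thbd (thrombomodulin) averaged 1.33 after 4 months but was not well above background in all channels. In the list, 4 of the 50 were raised on all 6 arrays, beside 1.53% of the background, and 1 was lowered, which is close to the background share of 2.36%. Median ratios over the 50 were 0.02, -0.02 and -0.02.

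Of 13 transcription factors and interleukin-6 signaling genes found, Cebpd (C/EBP delta, which drives acute-phase genes) averaged -0.12, 0.77 and 1.04, and was past 1.5-fold at 2 and 4 months, beside 0.385% and 1.14% of the background raised. Foxa2 (a liver forkhead factor) averaged 0.21, -0.47 and -1.01 and was past 1.5-fold after 4 months, beside 0.851% of the background lowered. Of the 13, these 2 were the ones past 1.5-fold in any month. Socs3 was below 0 on all 6 arrays at averages between -0.47 and -0.14, as 2.36% of the background was.

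Marker lists were read for what else differed between the pools. No marker found was at background in all channels. The 7 hepatocyte markers found of 9 names were well above background. Their summed signal was 0.858 to 1.12 times control and their medians were -0.03, -0.18 and -0.07. Of them 1, Tat, was raised at 2 and 4 months, beside 0.385% and 1.14% of the background. The 10 macrophage markers found had a summed signal of 0.974 to 1.09 times control, and 9 were well above background throughout, with median ratios of 0.23, 0.00 and 0.04. C1qc, the other C1q chain, averaged 0.08, 0.00 and 0.21, where C1qa and C1qb averaged 0.29 and 0.30 after 1 month. Emr1 was raised after 1 month, at 1.23, and Marco after 2 months, at 0.61, beside 0.385% of the background in each month. Of the 7 well above background besides C1qc and Emr1, after 1 month Lyzs, Cd68, Vsig4 and Csf1r averaged between 0.23 and 0.40, and Cd5l, Clec4f and Marco between 0.01 and 0.05. The part of these markers in the C1qa and C1qb values was not tested. Adipocyte markers, which Cfd joins in fat tissue, had a summed signal of 1.01 to 1.17 times control, endothelial markers of 1.02 to 1.21 times and stellate cell markers of 0.921 to 1.097 times. No adipocyte marker was past 1.5-fold. Of the endothelial markers, Cdh5 was raised after 1 month (0.59), beside 0.385% of the background. Of the stellate markers, Reln was below 0 on all 6 arrays and lowered after 4 months (-0.67), beside 0.851% of the background lowered in that month. Acinar pancreas markers reached 1.30 times control after 4 months. Of the 9 well above background throughout, 3 were then raised, beside 1.14% of the background: Cpa1 (0.81), Pnlip (0.74) and Prss2 (0.66). Cpb1 and Pnliprp1, which were not well above background in every channel, averaged 2.17 and 2.42 then. Blood markers summed to 94741 in the alcohol pool against 31552 in the control pool after 1 month. The blood sum was 0.879 times control after 2 months and 1.37 times after 4 months. Hba-a1 and Hbb-b1 were raised after 1 and 4 months, beside 0.385% and 1.14% of the background. Alas2, the erythroid heme synthesis gene of the same list, was lowered at -0.75 after 2 months and -2.003 after 4 months, beside 0.611% and 0.851% of the background. The part of these markers in the results was not tested. In mice, terminal complement activity is known to be higher in males, so genes of sex-dependent liver expression were listed too. Of 8 male-predominant genes well above background, 4, 2 and 5 were lowered past 1.5-fold at 1, 2 and 4 months, beside 0.34%, 0.611% and 0.851% of the background, and 0 were raised. The summed signal of the 9 found was 0.588, 0.822 and 0.708 times control. Bright genes weigh most in this sum, among them Gstp1 and Mup1. Their arrays of 1 month stood at -0.56 and -1.84, and at 0.04 and -1.98. Hsd3b5 (a hydroxysteroid dehydrogenase), the lowest, averaged -2.93, -2.04 and -4.83. Not all went this way in each month: Cyp4a12 averaged 0.50, 0.19 and -0.13, and Elovl3 -0.37, 0.58 and -1.20. Of 8 female-predominant genes well above background, 6, 5 and 7 were raised, beside 0.385%, 0.385% and 1.14% of the background, and 0 were lowered. Sult3a1 averaged -0.47, -0.14 and 2.14, and Prlr 0.72, -0.19 and 0.23. The summed signal of the 11 found was at least 2.06 times control in each month. The Y-linked genes Ddx3y, Eif2s3y, Uty and Jarid1d averaged between -0.29 and 0.05 and were past 1.5-fold in no month. Eif2s3y was below 0 on all 6 arrays, as 2.36% of the background was. These genes moved in the same pools as C6, C9 and F11, and their part in those results was not tested.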

How the data were processed

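Per the labels and the methods, liver RNA of 6 mice per diet was pooled and hybridized to Agilent 44K two-color arrays, 2 per month with exchanged dyes. The authors deposited Agilent Feature Extraction 9.1.1.1 output, with a processed signal intensity per channel (background-subtracted and normalized between dyes) and a log10 ratio for every spot. The authors also deposited a table of log10 ratios, which proved to be alcohol over control on all arrays and was used as an alternative. The arrays held 41174 probes after 1639 control spots were left out, and 73.3% to 90.3% of spots per channel were well above background. The number of arrays limits the precision.

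The log2 ratio of the processed signals was turned to alcohol over control by the dyes in the labels, averaged over spots and then over the 2 arrays of a month. limma 3.58.1 in R 4.3.3 tested the 3 monthly ratios (effect, and slope on log2 month) over 37922 probes with a signal well above background in any channel of any array, with Benjamini-Hochberg adjustment at 0.05. It was tested on simulated data. Tables and figures were made in Python 3.11.15 with pandas 2.3.3, numpy 2.4.6 and matplotlib 3.10.9. Members, gene lists and tests were chosen with earlier results of these data known, and the sex-dependent list after these ratios were seen. Values on every array are given for members past 1.5-fold in any month or of 1 direction on all 6 arrays, the fibrinogen chains and the highest and lowest member of each group. Other members named were chosen after their values were seen. Alternatives were the deposited ratios, normexp (offset 50) with loess, median centring, error weights, single dye orientations, other probe and filter rules, other thresholds, a slide term, a dye term with the month as a random block, another time scale, and leaving out each month. Sequences come from RefSeq promoters of GRCm38.p6, and the files name no build.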

Additional observations from a re-analysis of the deposited data

Results flagged for a closer look

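In 3 of the 39 members (7.69%), both arrays of one month lay above 0 and both arrays of another below 0, beside 14.1% of the 19981 background genes. These differences between months were not tested, and 2 arrays of a month share their RNA. Serpinf2 averaged 0.27 at 1 month and -0.40 at 2 months, a difference of 0.67 log2 units, the widest of the 3 genes, and its arrays of 4 months differed in sign. Serping1 differed by 0.16 between 1 and 2 months. Masp1 was 0.18 higher at 4 months than at 1 month and 0.12 higher than at 2 months, but its array of 4 months with alcohol in Cy5 stood at 0.0033. Other bright probes of Masp1 averaged -0.20, 0.12 and 0.18, and -0.028, -0.058 and -0.00082.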

How the results depend on the processing

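None of the 37922 probes passed the adjusted threshold for the alcohol effect, with 1409 raised and 1603 lowered at an unadjusted p under 0.05 in limma. With a dye term and the month as a random block, which counts the 6 arrays as nearly independent, 19 passed, with normexp and loess 9, and among bright probes alone 6. No member passed in any of the 13 settings run. For the trend 0 passed (1416 and 1285 unadjusted), and 50 with normexp and loess. In single dye orientations, the members lowered at 2 months were 13 (alcohol in Cy5) or 0 (Cy3), those lowered at 4 months were 8 (Cy5), and those raised at 4 months 2 (Cy5) or 6 (Cy3). At 2-fold, 1 member was lowered at 1 month and 0 at 2 months, and 0 were past 1.5-fold on each of the 2 arrays at 2 months. Leaving out a month gave 0 to 2 raised and 5 to 9 lowered members of 1 direction, an alternative added after seeing the data. The complement median at 1 month was 0.0457 on the array with alcohol in Cy3. The coagulation median at 1 month, whose 2 arrays differed little, moved to -0.0476 with normexp and loess, -0.0755 with centred arrays, -0.0452 with all probes of a name, -0.0531 with alcohol in Cy5 and -0.0587 with alcohol in Cy3. The effects of C6, C9, F11, C8a and C8g kept their sign in every setting run. These genes were below 0 on all 6 arrays, so settings that only average, weight or leave out the same ratios could not change it. An error-weighted average cannot change the signs of single arrays and gave no count there. Each array holds both pools of a month, so every ratio is already paired.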

Other observations

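The level of some members differed more between months than between diets, and Mbl2 and Cfd had the widest gaps. Mbl2, the C-type mannose-binding lectin, stood at 4.39 (log2 relative to the 75th percentile of its channel) in the control pool of 1 month and at 1.29 and 1.67 in those of 2 and 4 months, and the alcohol pools followed at 4.32, 0.90 and 1.29. Cfd stood at -1.40 in the control pool of 1 month and at -3.64 and -3.47 later. Of the 39 members, these 2 were at least 2 log2 units higher at 1 month than later, and 36 differed by less than 1 unit. Of the bright probes, 3.89% were at least 2 units higher and 1.84% at least 2 units lower at 1 month. The arrays of 1 month lay on a slide of their own, so that the slide, the month and the mice of the pools cannot be told apart.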
